A study of Arabidopsis thaliana with 16 samples.

Results

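Transcript levels in the chalazal endosperm were set against those in the micropylar endosperm, the regions of the seed's nutritive tissue at its opposite ends. The comparison rests on 5 of 16 arrays: all 3 arrays titled chalazal endosperm and both titled micropylar endosperm. Both groups came from unmodified Arabidopsis thaliana of accession Ws-0, from seeds whose heart-shaped embryo measured 52 to 85 µm in median section. Siliques of 1.2 to 1.5 cm were collected from plants aged 38 to 46 days under continuous light, fixed in ethanol and acetic acid and embedded in paraffin, and each region was cut out of the sections by laser microdissection. RNA (5 to 6 ng per sample) was amplified, labelled and hybridised to Affymetrix ATH1 arrays, which give 1 signal for each of 22746 Arabidopsis probe sets. The other 11 arrays of the series (embryo proper, peripheral endosperm, chalazal seed coat, seed coat and whole seeds) enter the estimate of spread, and some are given for values side by side. The labels call the arrays biological replicates but do not say how many seeds or plants each holds, or whether regions share plants. The p-values therefore measure only the spread between these arrays, and the small number of arrays limits the precision of every value. In captured regions such as these, fewer cells of a type and less RNA per cell cannot be told apart.

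The endosperm of Arabidopsis begins as a syncytium, in which nuclei divide without cell walls. Its micropylar part encloses the embryo and is the first to form cells, while its chalazal part, the cyst, remains multinucleate longest and lies beside the maternal tissue through which nutrients enter the seed. Protein breakdown by ubiquitin, autophagy and vacuolar proteases, cell division, wall remodelling and secreted peptides are described below by gene family, since these processes shape how endosperm grows, feeds the embryo and breaks down.

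The arrays differed between the regions in technical measures as well. Pearson correlations across all Arabidopsis probe sets, a description since genes are no replicates, were 0.829 to 0.864 among chalazal arrays and 0.902 between the micropylar arrays. Between the regions they were 0.574 to 0.705, and chalazal array 3 correlated best with the micropylar arrays (0.659 and 0.705). Micropylar arrays correlated with the embryo proper at 0.877 to 0.885 and with peripheral endosperm at 0.873 to 0.912. The background bound of an array, set at the 95th percentile over the 27 Bacillus controls, was 54.8 to 161 in chalazal endosperm and 48.2 to 67.8 in micropylar endosperm. Above it lay 44.7% to 64.4% of probe sets on chalazal arrays and 62.6% to 64.1% on micropylar arrays. Of an array's whole signal, 18.4% to 22.7% fell on its 100 brightest probe sets in chalazal endosperm and 13.1% to 14% in micropylar endosperm. The brightest Arabidopsis probe set had 162636 to 201885 on chalazal arrays and 59366 to 61656 on micropylar arrays. The cre control averaged 194292 to 298145 on chalazal and 91515 to 115036 on micropylar arrays. Array medians were alike (100 to 134 and 105 to 138), so centring on them leaves such a gap between bright signals in place. For the GAPDH control, signal at the 3' end over that at the 5' end was 3.49 to 24.7 on chalazal arrays and 11.7 to 18.9 on micropylar arrays. The part of these measures in the differences was not tested.

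Summed marker signals of neighbouring tissues were lower in both regions than in those tissues, but single markers were not all so. The summed signal of 6 embryo genes (LHW, CR4, PHV, BBM, CLV3 and YAB3) was 466, 423 and 356 on chalazal arrays, against 2366 and 625 on micropylar arrays and 4699 to 4825 in the embryo proper. Micropylar array 1 thus stood above micropylar array 2, chiefly through LHW, a bHLH regulator of vascular development (156, 28.3 and 187 in chalazal endosperm, against 1527 and 218 in micropylar endosperm). In the chalazal seed coat the sum was 2392 to 3755 and LHW had 1986 to 3221, so neither is particular to the embryo. Of the 6 genes, 0, 2 and 2 were above background on the chalazal arrays and 5 and 4 on the micropylar arrays. The summed signal of 4 seed coat genes (DFR, ARA12, BAN and UGT80B1) was 569 to 1438 on chalazal arrays and 939.6 to 1693 on micropylar arrays. It was 47426 to 53169 in the seed coat and 20132 to 26037 in the chalazal seed coat. UGT80B1, a sterol glucosyltransferase gene, had 60.5, 766 and 613 on chalazal arrays and 333 and 246 on micropylar arrays, against 354 and 460.4 in the seed coat. CLV3 was at 192 on chalazal array 2 and YAB3 at 238 on micropylar array 1, against 52.4 to 69.1 for both genes in the embryo proper, so these 3 genes did not separate the tissues. BAN, whose product makes proanthocyanidin precursors in the seed coat, was under background on every chalazal array and on micropylar array 1, and had a signal of 166 on micropylar array 2. Their part in the results was not tested. Few known endosperm markers are named in the annotation used here. AGL62, a MADS-box gene that delays cellularisation, had signals of 125, 433 and 156 in chalazal endosperm, against 51.9 and 85.0 in micropylar endosperm (1.35 ± 0.67, adjusted p = 0.154), which did not pass the test. IKU2, a receptor kinase gene of endosperm growth, was above background on 1 of the 5 arrays only, so the regional labels rest on the dissection.

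Differences are given on the log2(signal + offset) scale as chalazal minus micropylar endosperm with the standard error of the limma model, after centring each array on its median. A probe set was called where its p, adjusted by Benjamini-Hochberg over all 22746 probe sets, was below 0.05. By this rule 2343 probe sets (10.3%) were higher and 3204 (14.1%) lower in chalazal than in micropylar endosperm, with a median difference of 0.14 over all. The arrays of the regions did not overlap for 23.4% of probe sets in the higher and 21.8% in the lower direction. More probe sets were called higher by 4 or more log2 units in chalazal endosperm (425) than lower by as much (304). The cre control and the brightest signals were higher on chalazal arrays too (above), and their part in this was not tested. In contrast, 1147 probe sets were above background on both micropylar arrays and on no chalazal array, and 425 on all 3 chalazal arrays and on no micropylar array; chalazal arrays 1 and 2 had the highest background bounds. With the peripheral arrays as comparison, only 141 probe sets (0.620%) were higher and 37 (0.163%) lower in micropylar than in peripheral endosperm. Taking the brightest probe set of each of 13355 genes, 1349 genes (10.1%) were higher and 1641 (12.3%) lower in chalazal than in micropylar endosperm with a median of 0.19. By gene, the arrays did not overlap for 24.0% in the higher and 19.9% in the lower direction. The counts of the gene lists below are to be read against these shares. Without micropylar array 1, 1442 probe sets were higher and 1755 lower, and without micropylar array 2, 1535 were higher. Fitting only the 5 arrays gave 1455 and 2027. No probe set called in 1 direction was called in the other under any alternative.

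**Figure D1:**
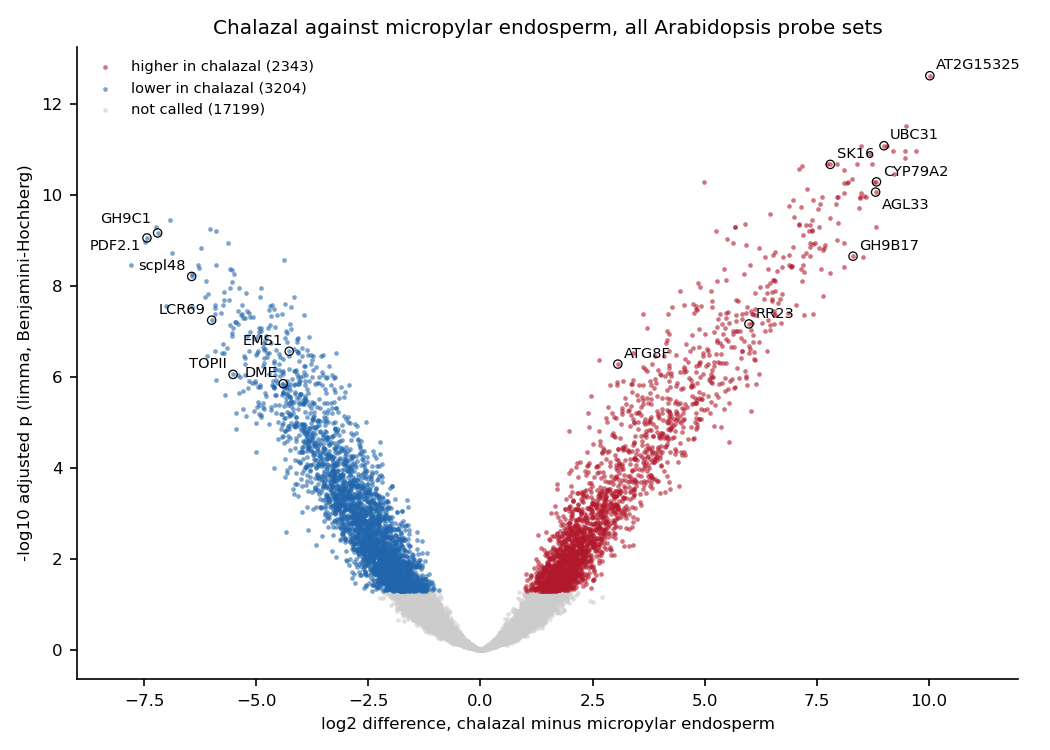
Log2 difference between chalazal and micropylar endosperm (x axis) against the −log10 of the adjusted p from limma (y axis) for every Arabidopsis probe set, with called probe sets in red (higher in chalazal, 2343) and blue (lower in chalazal, 3204) and the rest in grey. The right arm reaches further out (AT2G15325, 10.03) than the left (AT1G71250 at -7.48 and PDF2.1 at -7.44 among named genes), and the left arm holds more called probe sets. The cre control was also brighter on chalazal arrays.

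Where every array of the low region was at or under its background bound, the size is given as a bound ("at least"). Where only some were, the difference is a fitted value rather than a measured size. Genes named below with a difference kept their call when any of the 5 arrays was left out and under every alternative, unless another value is given beside them. This holds for the chalazal minus micropylar difference only.

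Among genes with a symbol, UBC31 (AT1G36340), which encodes a ubiquitin-conjugating enzyme, had the largest difference in favour of chalazal endosperm. Its signal was 44359.9, 48867 and 26980.2 in chalazal endosperm, against 24.9 and 82.5 in micropylar endosperm (9.01 ± 0.55, adjusted p = 8.21e-12). The ranges of the regions lay far apart. CYP79A2 (AT5G05260), whose product makes phenylacetaldoxime from phenylalanine for benzyl glucosinolate, had signals of 33233, 32207 and 19200.4 in chalazal endosperm, against 12.6 and 61.1 in micropylar endosperm. With both micropylar arrays under background, it was at least 326-fold higher (adjusted p = 5.11e-11). AGL33 (AT2G26320), a MADS-box gene, followed with 18157, 23759.9 and 7902 in chalazal endosperm, against 2.12 and 7.34 in micropylar endosperm (at least 179-fold higher, adjusted p = 8.58e-11). Its chalazal arrays spread over a wider range than those of UBC31, and none came near the micropylar values.

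GH9B17 (AT4G39000), of the endo-1,4-beta-glucanase family that cuts cellulose-like glucans, had signals of 31136, 39797 and 32335 in chalazal endosperm, against 36.9 and 157 in micropylar endosperm (8.32 ± 0.73). Its relative GH9B11 reached 15098, 19521 and 21859 in chalazal endosperm, against 65.9 and 71.2 in micropylar endosperm (7.62 ± 0.56). SK16 (AT2G03190), a SKP1-like subunit of SCF ubiquitin ligases, reached 43610.3, 45942 and 37619.9 in chalazal endosperm, against 65.9 and 373 in micropylar endosperm (7.81 ± 0.52). The micropylar values of SK16 differed by several-fold between the arrays but lay far below the chalazal ones. RALFL28, of the RALF family of secreted peptides, was at least 116-fold higher (signals of 6133, 15756 and 9442 in chalazal endosperm, against 4.66 and 40.2 in micropylar endosperm). The tau class glutathione S-transferase gene GSTU15 was at least 108-fold higher, and the cytochrome P450 gene CYP71B35 was higher by 7.65 ± 0.75. SBT4.13, a subtilisin-like protease gene, was higher by 7.17 ± 0.67, FOLB1, whose product acts in folate synthesis, by 6.94 ± 0.63, and TBL41, of a family that adds acetyl groups to wall polysaccharides, by 6.64 ± 0.67. All 12 of these genes had every chalazal array above every micropylar array.

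**Figure D2:**
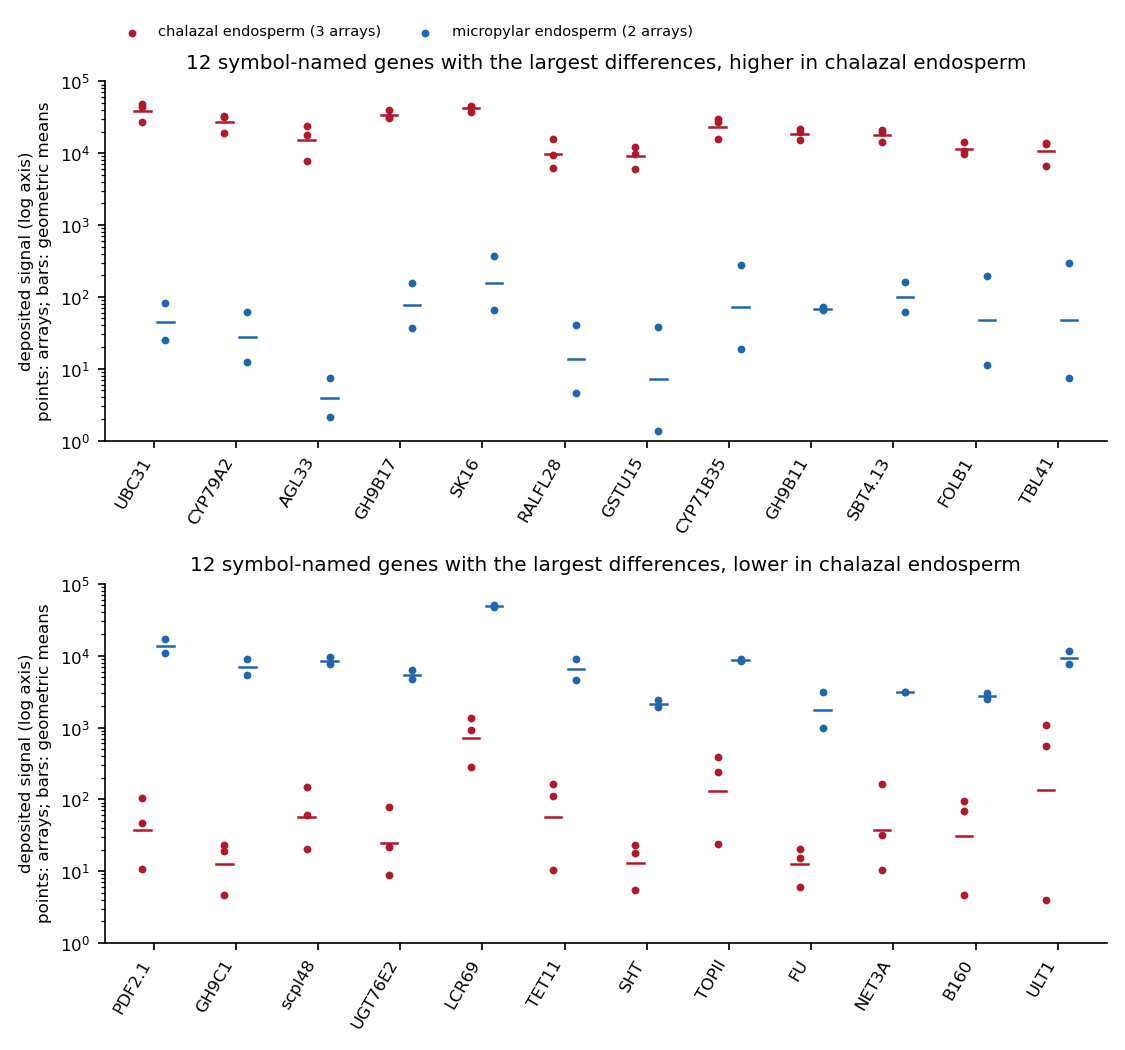
Deposited signal on each array (y axis, log scale) for the 12 symbol-named genes with the largest differences in each direction (x axis), chalazal endosperm in red to the left of micropylar endosperm in blue, with 1 point per array and bars at geometric means. In the upper panel no chalazal point lies below 6122 and no micropylar point above 373. In the lower panel the chalazal points of ULT1 span the widest range, and no chalazal point reaches the micropylar points of its gene.

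Genes known in the annotation by locus alone held still larger differences. AT2G15325 had the largest of all named probe sets, with signals of 35734, 45480.0 and 31059 in chalazal endosperm, against 7.32 and 6.12 in micropylar endosperm (at least 440.0-fold higher, adjusted p = 2.38e-13). AT1G07690 had the brightest chalazal signals of these genes, 60363, 71424 and 31789 in chalazal endosperm, against 27.4 and 68.2 in micropylar endosperm (9.48 ± 0.59). AT4G35985 was at least 372-fold higher, AT4G15040 at least 316-fold and AT2G20170 at least 369.6-fold. In the chalazal seed coat, the maternal tissue next to the chalazal endosperm, the signal was 1070.5 to 2257 for AT2G15325, 945 to 1448 for AT4G35985, 1045 to 4565 for UBC31 and 146 to 998 for CYP79A2, on 3 arrays. These values lay below every chalazal endosperm array and, for each of the 4 genes, above both micropylar arrays. Other genes called higher had the reverse order. TET9 ranged from 1294.5 to 2312 on arrays of this maternal tissue and from 654 to 780 on chalazal endosperm arrays. For BETA-VPE the ranges were 3366 to 5450 and 158 to 258, and RR22 (below) was brighter in the maternal tissue too. SNF7.1 overlapped (3258 to 5824 and 3453 to 5398). How many called genes had either order was not counted.

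The autophagy genes differed in 1 direction. Autophagy carries portions of the cytoplasm to the vacuole in vesicles whose membrane bears lipid-linked ATG8. Of 10 measured members (9 ATG8-type genes and ATG3, whose product joins ATG8 to its lipid), 10 were higher in chalazal endosperm and none lower, against 10.1% of all genes higher, with a median difference of 2.03 against 0.19 over all genes. ATG8F, the brightest of those named here, had signals of 23310.5, 23702 and 16993 in chalazal endosperm, against 1957 and 3461 in micropylar endosperm (3.07 ± 0.37, adjusted p = 5.15e-07). ATG8H was at least 8.41-fold higher (signals of 640.4, 1004 and 479 in chalazal endosperm, against 1.84 and 7.0 in micropylar endosperm), ATG8G was higher by 3.17 ± 0.56 and ATG8D by 2.76 ± 0.50. ATG3 had the smallest difference (1.18 ± 0.42, adjusted p = 0.0399), and its call was lost without micropylar array 1 (adjusted p = 0.127), micropylar array 2 (adjusted p = 0.151) or chalazal array 3 (adjusted p = 0.117). The number called was 6 without micropylar array 2 and 5 in the fit of the 5 arrays alone. Probe sets of ATG8 genes, which are similar in sequence, may share signal, and this was not tested.

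Ubiquitin genes were mixed by family. Ubiquitin is joined to proteins by conjugating enzymes and ligases, marking many for degradation, and is removed by deubiquitinating enzymes. Of 12 conjugating enzyme genes 3 were higher and 1 lower (median -0.06). Beside UBC31 these were UBC30, with signals of 30414, 36384 and 25581 in chalazal endosperm, against 2304 and 3888 in micropylar endosperm (3.40 ± 0.40), and UBC32, known for the turnover of proteins of the endoplasmic reticulum, with 999.7, 1947 and 1596 in chalazal endosperm, against 204 and 176 in micropylar endosperm (2.82 ± 0.55). UBC16 was lower (-1.92 ± 0.59, adjusted p = 0.018), with adjusted p = 0.346 without micropylar array 1 and adjusted p = 0.0673 without chalazal array 1. Of 12 deubiquitinating enzyme genes 5 were higher and 1 lower (median 1.45). UBP19 had signals of 8434, 3257 and 7875 in chalazal endosperm, against 240.4 and 736 in micropylar endosperm (3.79 ± 0.56), and UBP26, which removes ubiquitin from histone H2B, 4038, 6510.4 and 5729 in chalazal endosperm, against 255 and 722 in micropylar endosperm (3.59 ± 0.51). UBP23, the lower member (-1.28 ± 0.47, adjusted p = 0.0493), lost its call without micropylar array 1 (adjusted p = 0.147), micropylar array 2 (adjusted p = 0.199) or chalazal array 1 (adjusted p = 0.27), and the lower count was 2 without chalazal array 2. Of 38 genes listed as ligase and F-box genes 7 were higher and 3 lower (median 0.20), and the higher count was 3 without micropylar array 1 and 4 without micropylar array 2. The list held 3 genes of other function, KOM (a rhomboid-like protease, higher), SR (serine racemase, lower) and NCRK (a kinase, not called). Without them 6 of 35 genes were higher and 2 lower. SK16 (above) was among the higher, and the ligase gene PUB22 was at least 2.78-fold lower (adjusted p = 0.0021).

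Vesicle traffic and vacuolar protease genes also split within families. Of 46 traffic genes 14 were higher and 4 lower in chalazal endosperm (median 0.68), and the higher count was 7 when either micropylar array was left out. SEC22, a SNARE of traffic between endoplasmic reticulum and Golgi, had signals of 10326, 13884 and 6972 in chalazal endosperm, against 1313 and 1548 in micropylar endosperm (2.85 ± 0.40). Subunits of the ESCRT machinery, which sorts ubiquitin-marked membrane proteins into vesicles bound for the vacuole, appeared on both sides. Higher were VPS24.1 (6197, 11354 and 5246 in chalazal endosperm, against 1623 and 2164 in micropylar endosperm; 1.98 ± 0.42) and SNF7.1 (1.97 ± 0.42). Lower were VPS24.2, with signals of 96.4, 3.98 and 7.68 in chalazal endosperm, against 2047 and 897 in micropylar endosperm (at least 10.1-fold lower, adjusted p = 1.60e-06), and VPS22, with 293, 431 and 486 in chalazal endosperm, against 2257 and 2156 in micropylar endosperm (-2.33 ± 0.45). VPS24.1 and VPS24.2, a pair of similar genes, thus had opposite patterns, and neither pair of groups overlapped.

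Vacuolar processing enzymes are cysteine proteases that mature other vacuolar proteins. GAMMA-VPE had signals of 6046, 11827 and 6734 in chalazal endosperm, against 1949 and 1990.2 in micropylar endosperm (2.04 ± 0.40, adjusted p = 3.40e-04), and DELTA-VPE had 392, 237 and 334 in chalazal endosperm, against 2436 and 1758 in micropylar endosperm (-2.54 ± 0.49, adjusted p = 2.52e-04). GAMMA-VPE was thus the higher and DELTA-VPE the lower in chalazal endosperm. BETA-VPE passed the test (1.49 ± 0.51, adjusted p = 0.0333) but not without any 1 of micropylar array 1 (adjusted p = 0.12), micropylar array 2 (adjusted p = 0.12), chalazal array 1 (adjusted p = 0.059) or chalazal array 3 (adjusted p = 0.0662). ALPHA-VPE did not pass (0.59).

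**Figure D3:**
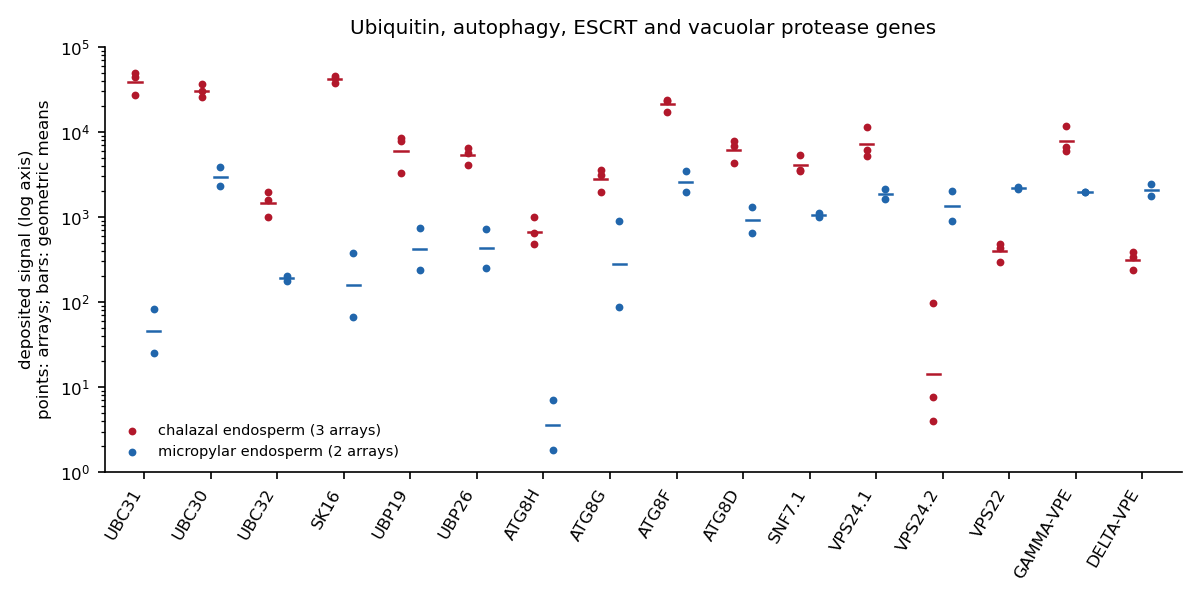
Deposited signal on each array (y axis, log scale) for 16 genes of ubiquitin conjugation and removal, autophagy, ESCRT sorting and vacuolar proteolysis (x axis), chalazal endosperm in red to the left of micropylar endosperm in blue, with 1 point per array and bars at geometric means. The chalazal points lie above the micropylar points for 13 of the 16 genes and below them for VPS24.2, VPS22 and DELTA-VPE.

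Type I MADS-box genes encode transcription factors of which several act in the female gametophyte and the endosperm. Of 23 measured, 5 were higher and 1 lower in chalazal endosperm (median 0.61). AGL91 had signals of 3598, 4624 and 1727 in chalazal endosperm, against 67.3 and 227 in micropylar endosperm (4.35 ± 0.67), AGL28 1291, 2204 and 1257 in chalazal endosperm, against 39.8 and 118 in micropylar endosperm (4.0 ± 0.63) and AGL23 2089, 1861 and 1102 in chalazal endosperm, against 104 and 81.4 in micropylar endosperm (3.82 ± 0.66). None of these 3 overlapped between the regions. AGL61, a partner of AGL80 in the central cell, passed the test (1.94 ± 0.67, adjusted p = 0.0341), but not without chalazal array 1 (adjusted p = 0.17), chalazal array 3 (adjusted p = 0.0986) or micropylar array 2 (adjusted p = 0.392). The number called higher was 3 when any 1 of these 3 arrays was left out. AGL26 was at least 3.14-fold lower (adjusted p = 2.32e-05), and 1 of its 2 probe sets was not called. The lower count was 2 without micropylar array 1. IKU1, which acts with IKU2 in endosperm growth, was higher, with signals of 1561, 1257 and 621 in chalazal endosperm, against 189.5 and 218 in micropylar endosperm (2.30 ± 0.53, adjusted p = 0.00182). DME, the DNA glycosylase gene known for activating imprinted genes in the central cell, was lower, with signals of 6.53, 16.8 and 85.8 in chalazal endosperm, against 985 and 1615 in micropylar endosperm (-4.40 ± 0.57, adjusted p = 1.39e-06). All 3 of its probe sets were called lower.

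Cytokinin response regulators relay a phosphate signal from cytokinin receptors. RR23 was at least 50.2-fold higher in chalazal endosperm (signals of 3229, 5494 and 4153 in chalazal endosperm, against 29.5 and 50.1 in micropylar endosperm), and RR19, a type-B regulator of the DNA-binding kind, was higher by 5.38 ± 0.58 (signals of 16124, 12548 and 5908 in chalazal endosperm, against 242 and 231 in micropylar endosperm). Neither overlapped between the regions. RR22 was called higher (adjusted p = 0.00533), but not without micropylar array 1. Its signals were 141 to 199 in chalazal endosperm and 12.1 to 44.8 in micropylar endosperm, under background on both micropylar arrays. In peripheral endosperm they were 115 to 146, and in the chalazal seed coat 20312 to 22969, far above chalazal endosperm. The type-A genes ARR15 (-2.20 ± 0.61, adjusted p = 0.00831) and RR16 (-1.71 ± 0.59, adjusted p = 0.0341), whose products dampen the response, were lower. Their calls were lost without micropylar array 1 (adjusted p = 0.218 for ARR15 and adjusted p = 0.211 for RR16), and that of RR16 also without micropylar array 2 (adjusted p = 0.0695) and chalazal array 1 (adjusted p = 0.126). Over all 9 measured cytokinin genes the count was 3 higher and 2 lower. Among other regulators, NGA4, a B3-domain factor, was at least 34.1-fold higher, and PYE, a bHLH factor of the iron deficiency response, was higher by 3.20 ± 0.52. ULT1, a chromatin regulator that limits meristem size, was lower with signals of 4.03, 549.7 and 1085 in chalazal endosperm, against 11488 and 7646 in micropylar endosperm (-5.0 ± 0.83), where chalazal array 1 was far below the other chalazal arrays. MYC3, a bHLH factor of jasmonate responses, was at least 7.52-fold lower. RTE1, which promotes activity of an ethylene receptor, had signals of 79.4, 90.8 and 61.5 in chalazal endosperm, against 2038 and 1885 in micropylar endosperm (-4.16 ± 0.52).

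The largest differences in favour of micropylar endosperm involved genes of varied function. PDF2.1 (AT2G02120), a defensin gene, had signals of 10.7, 46.6 and 103 in chalazal endosperm, against 16922 and 10908 in micropylar endosperm (-7.44 ± 0.62, adjusted p = 8.72e-10). GH9C1, an endo-1,4-beta-glucanase gene, had signals of 19.2, 22.8 and 4.71 in chalazal endosperm, against 8946 and 5348 in micropylar endosperm and was at least 50.7-fold lower in chalazal endosperm (adjusted p = 6.76e-10). The serine carboxypeptidase-like gene scpl48 had signals of 149.7, 20.5 and 61.3 in chalazal endosperm, against 9489.6 and 7687 in micropylar endosperm (-6.45 ± 0.60). In all 3 every chalazal array lay far below both micropylar arrays. The glucosyltransferase gene UGT76E2 (-6.44 ± 0.65), and the tetraspanin gene TET11 (-5.90 ± 0.75) were lower too. SHT, which joins hydroxycinnamoyl groups to spermidine, was at least 15.9-fold lower. Of genes known by locus alone, AT1G71250 had the lowest difference (3.11, 4.78 and 101 in chalazal endosperm, against 9492 and 10456 in micropylar endosperm; -7.48 ± 0.63), followed by AT1G04645 (-7.24 ± 0.58), AT2G38870 (-7.02 ± 0.71), AT1G67820 (-6.92 ± 0.54) and AT1G12080 (-6.44 ± 0.59).

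PDF2.1 lies in a run of 8 annotated genes on chromosome 2 in the TAIR10.1 gene table that also holds the defensin-type genes LCR69, LCR68 and LCR72. Their patterns differed. LCR69, among the brightest genes of the micropylar arrays, had signals of 1366, 279 and 914 in chalazal endosperm, against 51445 and 47642 in micropylar endosperm (-6.0 ± 0.64, adjusted p = 5.58e-08). LCR72 had 2832, 5473 and 1052 in chalazal endosperm, against 26.3 and 12.3 in micropylar endosperm (at least 30.6-fold higher, adjusted p = 1.05e-06). LCR68, next to PDF2.1 in the table, had 182, 71.2 and 5.44 in chalazal endosperm, against 142 and 404 in micropylar endosperm and did not pass the test (-1.52 ± 0.66, adjusted p = 0.0958). LCR69 and PDF2.1 were thus lower and LCR72 higher in chalazal endosperm, with no overlap of arrays in any of the 3. Over 32 cysteine-rich peptide genes, 2 were higher and 4 lower (median 0.16), against 10.1% higher and 12.3% lower over all genes. The higher count was 4 without chalazal array 1. LCR24, counted among the lower (140.3, 20.6 and 85.6 in chalazal endosperm, against 74.6 and 4969 in micropylar endosperm; adjusted p = 0.0339), rested on micropylar array 2 (adjusted p = 0.938 without it, and adjusted p = 0.117 without chalazal array 2).

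More genes of nuclear and cell division were called lower than higher in chalazal endosperm. Of 20 genes of mitosis 7 were lower and 1 higher (median -1.21), against 12.3% of all genes lower. CKS, 1 of the 7, encodes CMP-KDO synthetase and was listed through a shared symbol, and without it 6 of 19 genes were lower. 3xHMG-box2, whose product binds mitotic chromosomes, had signals of 314, 393 and 781 in chalazal endosperm, against 12084 and 12359.6 in micropylar endosperm (-4.58 ± 0.58, adjusted p = 8.73e-07), with no overlap. BUBR1, of the spindle checkpoint, was at least 2.98-fold lower (adjusted p = 0.00299), but had adjusted p = 0.06 without micropylar array 1. Without that array the number of mitosis genes called lower was 2. The Aurora kinase genes AUR1 (-1.40 ± 0.64) and AUR2 (-1.69 ± 0.66) did not pass the test. CDC27a, a subunit of the anaphase-promoting complex, was the higher member (2.16 ± 0.68, adjusted p = 0.0202), and this was lost without micropylar array 1 (adjusted p = 0.316) or chalazal array 3 (adjusted p = 0.114).

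Of 9 DNA replication genes 3 were lower and none higher, with none higher at an unadjusted p under 0.05 either (median -0.85). TOPII, topoisomerase II, had signals of 239, 23.6 and 389.9 in chalazal endosperm, against 8372 and 9113 in micropylar endosperm (-5.52 ± 0.69). PRL, a subunit of the replicative helicase, had 314, 171 and 364 in chalazal endosperm, against 2488 and 2179 in micropylar endosperm (-2.91 ± 0.53), and PSF2, of the GINS complex at replication forks, was at least 1.75-fold lower. Of 7 histone genes 3 were lower and none higher, with none higher at an unadjusted p under 0.05: the linker histone-like gene HON4 (-3.64 ± 0.67) and the H2B genes HTB4 (1509, 675 and 2092 in chalazal endosperm, against 8068 and 7747 in micropylar endosperm; -2.53 ± 0.43) and HTB2 (-2.32 ± 0.48). No replication or histone gene named here as lower overlapped between the regions.

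The phragmoplast and cell plate build the new wall between daughter nuclei. Of 32 genes listed for these and for microtubules, 8 were lower and 4 higher (median -0.42). The list includes tubulin and other microtubule genes, so its counts do not speak of wall building alone. TUB7, a beta-tubulin gene, had signals of 1103, 648 and 989 in chalazal endosperm, against 7697 and 9029 in micropylar endosperm (-3.12 ± 0.41), and SPR1, whose product binds microtubules, 776, 302 and 588 in chalazal endosperm, against 5094 and 5970.2 in micropylar endosperm (-3.28 ± 0.42). TUB6 was lower (-3.02 ± 0.53) and TRM31 was at least 10.8-fold lower. TRM33 was at least 4.81-fold higher. KEU, which acts in cell plate membrane fusion, was higher (1.69 ± 0.45, adjusted p = 0.00634) but not without micropylar array 1 (adjusted p = 0.0835), and the higher count was 2 without micropylar array 1, micropylar array 2 or chalazal array 3. FU (AT1G50240), a kinase gene of phragmoplast growth, was at least 13.2-fold lower (signals of 15.5, 6.08 and 20.3 in chalazal endosperm, against 3149 and 993 in micropylar endosperm), on both of its probe sets.

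More actin genes were called lower than higher in chalazal endosperm. Of 24 measured, 10 were lower, 1 was higher and 13 were not called (median -1.04), and 6 were lower without micropylar array 1. NET proteins bind actin at membranes. NET3A had signals of 10.5, 31.8 and 164 in chalazal endosperm, against 3165 and 3095 in micropylar endosperm (-5.26 ± 0.66) and NET4B 13.7, 119 and 154 in chalazal endosperm, against 3303 and 1639 in micropylar endosperm (-4.41 ± 0.59), while NET1C had 21407, 17357 and 13488 in chalazal endosperm, against 751 and 819 in micropylar endosperm (4.46 ± 0.43, adjusted p = 1.28e-08). NET1C was thus the higher member and did not overlap between the regions. The actin gene ACT11 (172, 91.3 and 11.8 in chalazal endosperm, against 2716 and 2614 in micropylar endosperm; -4.68 ± 0.66) and WLIM2b, an actin-bundling protein gene (-4.60 ± 0.62), were lower.

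Receptor kinases carry signals across the plasma membrane. Of 13 genes of receptor kinases and related kinases 6 were lower and none higher by limma (median -1.10), with 1 higher at an unadjusted p under 0.05. Without micropylar array 1, 3 were lower, and without chalazal array 3, 1 was called higher. EMS1, known for anther cell fate, had signals of 77.0, 61.5 and 70.2 in chalazal endosperm, against 1310.0 and 2967 in micropylar endosperm (-4.27 ± 0.50, adjusted p = 2.69e-07). THE1, which senses cell wall integrity, had 90.8, 116 and 114 in chalazal endosperm, against 1593 and 889.9 in micropylar endosperm (-3.10 ± 0.51), and ATSIK was at least 4.78-fold lower. FER, a RALF peptide receptor related to THE1, was lower (-2.10 ± 0.54, adjusted p = 0.00443) but not without micropylar array 1 (adjusted p = 0.121). CR4, an epidermal receptor kinase that is also among the embryo markers, was at least 1.49-fold lower (adjusted p = 0.0413) but not without micropylar array 1 (adjusted p = 0.348), chalazal array 1 (adjusted p = 0.0937) or chalazal array 2 (adjusted p = 0.106).

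**Figure D4:**
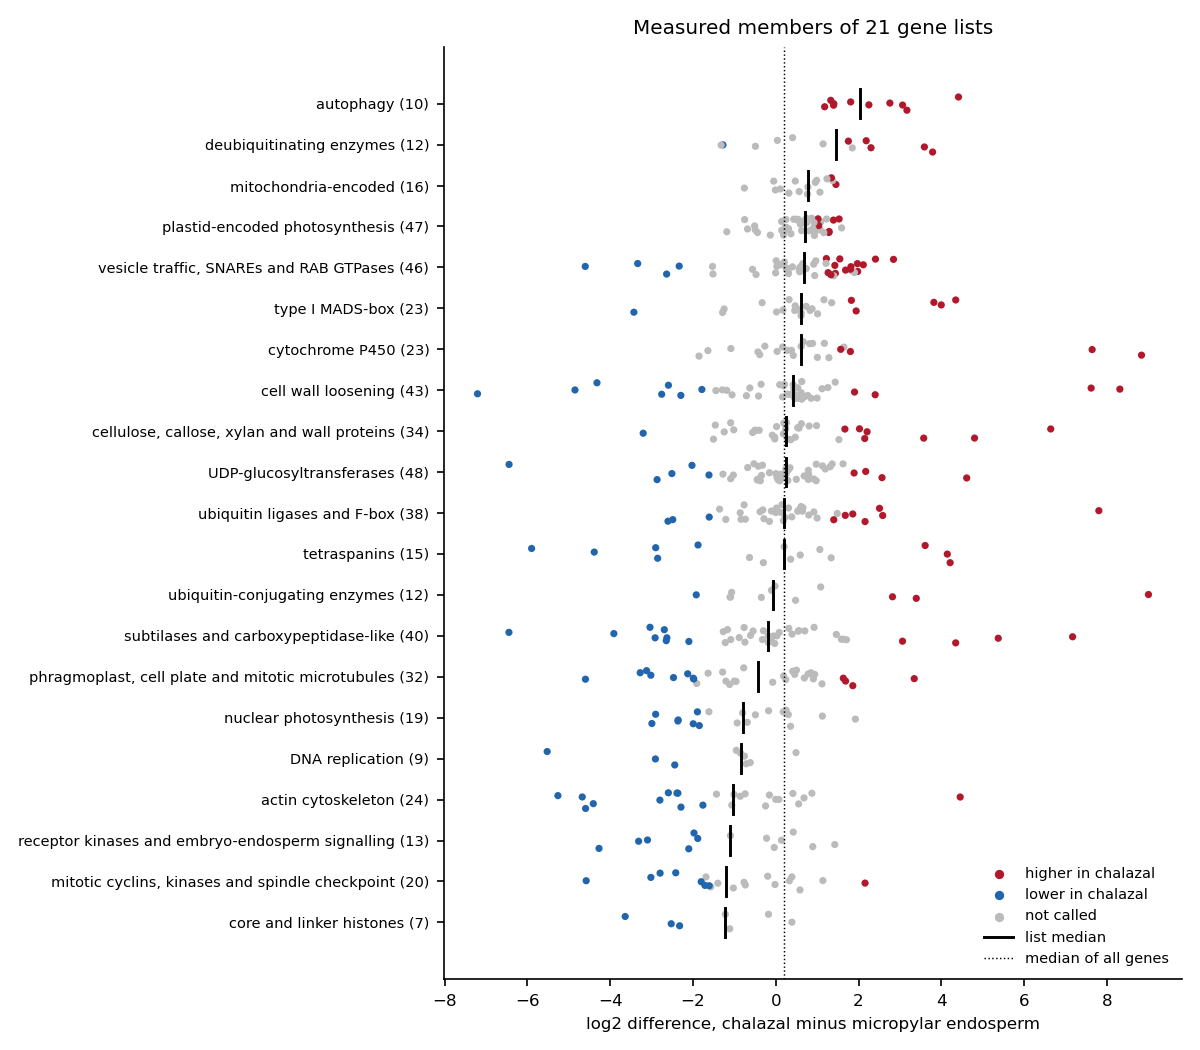
Log2 difference, chalazal minus micropylar endosperm (x axis), for each measured gene of 21 lists (rows, number of genes in parentheses), with genes called higher in chalazal in red, called lower in blue and the rest in grey. Black bars are list medians and the dotted line is the median of all genes, 0.19. The autophagy row lies wholly to the right of that line, while the lowest rows (histones, mitosis, receptor kinases, actin) have medians at or below -1.04 and both wall-modifying families reach far out on either side.

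Wall enzyme genes were called on both sides within single families. Of 43 wall-loosening genes (expansins, xyloglucan-modifying XTH enzymes, GH9 glucanases and EXO) 4 were higher and 7 lower (median 0.42). These counts were near the shares over all genes, 10.1% higher and 12.3% lower. Of the GH9 glucanases, GH9B17 and GH9B11 were higher (above), while GH9C1, GH9B8 (at least 11-fold lower, signals of 21.2, 15.4 and 23.7 in chalazal endosperm, against 2405 and 909 in micropylar endosperm), GH9A3 (at least 7.53-fold lower) and GH9C2 (-2.76 ± 0.58) were lower. The higher count was 2 without micropylar array 2 and the lower count 4 without chalazal array 1. Of 34 genes of wall polysaccharides and their acetylation 7 were higher and 1 lower (median 0.25). TBL43 had signals of 1315, 826 and 1912 in chalazal endosperm, against 22.9 and 14.7 in micropylar endosperm (at least 15.6-fold higher) and TBL32 had 289, 1021 and 1144 in chalazal endosperm, against 8600.4 and 5717 in micropylar endosperm (-3.20 ± 0.53). TBL41 and TBL43 were thus higher and TBL32 lower in chalazal endosperm. The higher count was 3 without micropylar array 1 and 4 without micropylar array 2. None of 9 pectin-modifying genes was called, with 2 higher and none lower at an unadjusted p under 0.05, and 1 was called higher without chalazal array 3.

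Secreted proteases were divided too. Of 40 subtilase and serine carboxypeptidase-like genes 4 were higher and 8 lower (median -0.18), with 4 lower without micropylar array 1. Beside SBT4.13, scpl47 (4651, 10691 and 2249 in chalazal endosperm, against 184 and 259 in micropylar endosperm; 4.35 ± 0.73), scpl21 (5.38 ± 0.81) and SCPL43 (at least 5.61-fold higher) were higher. Beside scpl48, scpl20 (132, 617 and 179 in chalazal endosperm, against 4634 and 4105 in micropylar endosperm; -3.91 ± 0.54) and scpl26 (-3.04 ± 0.59) were lower. SBT5.4 was at least 2.18-fold lower (adjusted p = 0.00262), with adjusted p = 0.0784 without micropylar array 2.

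Tetraspanins are membrane proteins that organise other proteins into domains. Of 15 genes 3 were higher and 5 lower (median 0.20). TET4 had signals of 17445, 16321 and 15163 in chalazal endosperm, against 1449 and 595 in micropylar endosperm (4.15 ± 0.65), TET8 11142, 8666 and 6062 in chalazal endosperm, against 1075 and 435 in micropylar endosperm (3.61 ± 0.49) and TET9 was at least 8.97-fold higher. TET11 (above) and TET3, with signals of 211, 6.61 and 152 in chalazal endosperm, against 3197 and 1999 in micropylar endosperm (-4.39 ± 0.64), were lower. No tetraspanin named here overlapped between the regions. The lower count was 2 without micropylar array 1, with TET10 (adjusted p = 0.105) and TET15 (adjusted p = 0.17) among those lost.

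Enzymes that conjugate or oxidise small molecules included some of the largest differences, but most members were not called. Of 23 cytochrome P450 genes 4 were higher and none lower by limma (2 lower at an unadjusted p under 0.05), with 2 higher without any 1 of micropylar arrays 1 and 2 and chalazal array 1. CYP79A2 and CYP71B35 were the members whose call held throughout. Without chalazal array 1, 1 P450 gene was called lower, and without centring of the arrays 2 were. Of 48 UDP-glucosyltransferase genes 4 were higher and 5 lower (median 0.25), near the 10.1% and 12.3% over all genes. Among them were UGT74D1 (at least 21.9-fold higher) and UGT72E3 (at least 2.63-fold higher) on the 1 side and UGT76E2 on the other. The lower count was 1 without micropylar array 1 and 3 without chalazal array 1 or 2. Of 32 glutathione S-transferase and redoxin genes 2 were higher and 6 lower (median 0.05). GSTU18 had signals of 10.6, 14.9 and 100.4 in chalazal endosperm, against 2154 and 1493 in micropylar endosperm (-4.81 ± 0.65) and TRXF2, a plastid thioredoxin gene, 221, 13.1 and 252 in chalazal endosperm, against 3487 and 1373 in micropylar endosperm (-3.87 ± 0.68), both lower, against GSTU15 on the higher side. Without micropylar array 1 the higher count was 1.

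Among nuclear photosynthesis genes every call was lower in chalazal endosperm. Of 19 genes 7 were lower and none higher by limma (median -0.80), with 1 higher at an unadjusted p under 0.05. Without micropylar array 1, 2 were lower, and with the filter at control background 1 was called higher. SBPASE, an enzyme of the Calvin cycle, had signals of 367, 421 and 673 in chalazal endosperm, against 4114 and 4151 in micropylar endosperm (-2.99 ± 0.44, adjusted p = 8.12e-06). The photosystem I gene PSAN (-2.36 ± 0.62) was lower, with adjusted p = 0.0508 without micropylar array 2, as was the antenna gene LHCB4.3 (-2.36 ± 0.52), with adjusted p = 0.0934 without micropylar array 1. Of 47 plastid-encoded photosynthesis genes 6 were higher, a share near the 10.1% over all genes, and none lower by limma or at an unadjusted p under 0.05 (median 0.70). For psbA, a core subunit of photosystem II, signals were 62638, 60797 and 24446 in chalazal endosperm, against 15886 and 16833 in micropylar endosperm (1.53 ± 0.38, adjusted p = 0.00353), with adjusted p = 0.182 under quantile normalisation. Plastid counts depended on the setting: 0 were higher under quantile normalisation, 2 without micropylar array 2 or chalazal array 2, 3 without chalazal array 1 and 14 without chalazal array 3. Plastid chaperonin genes Cpn60beta2 (562, 493 and 1572 in chalazal endosperm, against 5828 and 6274 in micropylar endosperm; -2.88 ± 0.49) and Cpn60beta3 (-2.26 ± 0.46), both encoded in the nucleus, were lower.

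Reserve and carbon metabolism genes were few in the annotation. OLEO3, a protein of the oil body surface, had signals of 26.7, 549.7 and 154 in chalazal endosperm, against 2235 and 2593 in micropylar endosperm (-3.68 ± 0.77), and FaTA, which releases fatty acids in plastids, 375, 476 and 896 in chalazal endosperm, against 3644 and 3173 in micropylar endosperm (-2.52 ± 0.50). Both were lower, without overlap. The starch genes SBE2.2, a branching enzyme (612, 177 and 97.1 in chalazal endosperm, against 2374 and 2731 in micropylar endosperm; -3.27 ± 0.52), and APL4, of ADP-glucose synthesis (at least 2.83-fold lower), were lower. The alpha-amylase gene AMY1 was higher, with signals of 5387, 8399.6 and 14259 in chalazal endosperm, against 1763 and 821 in micropylar endosperm (2.87 ± 0.69, adjusted p = 0.00265), but not without micropylar array 2 (adjusted p = 0.0881). The sugar transporter genes SWEET8 and SAG29 had opposite differences: SWEET8 was higher (5293, 5799 and 3637 in chalazal endosperm, against 937 and 1682 in micropylar endosperm; 1.97 ± 0.52, adjusted p = 0.00599) but not without micropylar array 1 (adjusted p = 0.0877), and SAG29 was at least 9.60-fold lower (signals of 106, 4.85 and 47.0 in chalazal endosperm, against 1600.5 and 1029.7 in micropylar endosperm). ACLB-1, of cytosolic ATP-citrate lyase, was higher by 3.17 ± 0.56, and cICDH, the cytosolic isocitrate dehydrogenase gene, was lower, with signals of 1989, 1298 and 2659.7 in chalazal endosperm, against 12014 and 11751 in micropylar endosperm (-2.56 ± 0.38). Of 20 chaperone genes 6 were higher and 3 lower, among them the co-chaperone genes Hop3 (3.33 ± 0.62) and Hop2 (1.99 ± 0.40) on the higher side. The higher count was 3 when either micropylar array was left out.

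The auxin and gibberellin lists held no call. None of 17 auxin genes was called by limma, with 3 higher and none lower at an unadjusted p under 0.05. The highest was YUC2, of auxin synthesis, at 1.45 ± 0.59 (adjusted p = 0.0758), and 1 auxin gene was called higher without chalazal array 3. None of 6 gibberellin genes was called, with 1 higher and 2 lower at an unadjusted p under 0.05. Without micropylar array 2 or chalazal array 3, 1 gibberellin gene was called lower. Of 3 ethylene genes 1 was called, RTE1, and of 7 jasmonate genes 1 was called, MYC3, both lower (above). At these array numbers a miss does not show equal levels.

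Some genes of the micropylar side were also higher in micropylar than in peripheral endosperm, a comparison that shares the micropylar arrays, so its values are given side by side and not as independent evidence. Whether the calls of this comparison held with an array left out was not checked. AT1G71250 had signals of 3.11, 4.78 and 101 in chalazal, 9492 and 10456 in micropylar and 128 and 298 in peripheral endosperm (micropylar minus peripheral 5.46 ± 0.69, adjusted p = 3.65e-04). scpl48 had 9489.6 and 7687 in micropylar, against 785 and 354 in peripheral endosperm (3.94 ± 0.66, adjusted p = 0.00225). TET11 had 112, 10.5 and 163 in chalazal, 4577 and 9034 in micropylar and 966 and 127 in peripheral endosperm (4.04 ± 0.83, adjusted p = 0.0148). These genes were thus brightest on both micropylar arrays. RALFL18, a RALF-type peptide gene, was at least 3.70-fold lower in chalazal than in micropylar endosperm and had signals of 271 and 821 in micropylar, against 2.66 and 10.3 in peripheral endosperm (3.80 ± 0.66, adjusted p = 0.00309). For SAG29 the signals were 1600.5 and 1029.7 in micropylar, against 92.0 and 103 in peripheral endosperm (3.37 ± 0.74, adjusted p = 0.022). In 16 named genes, both the difference from chalazal and that from peripheral endosperm passed the test in favour of micropylar endosperm. LHW, among these genes, is also an embryo marker, with 1475 to 1891 in the embryo proper. It had 1986 to 3221 in the chalazal seed coat. Its signals were 1527 and 218 in micropylar endosperm, against 156, 28.3 and 187 in chalazal endosperm. Its call as lower in chalazal endosperm was lost without chalazal array 2, in the fit of the 5 arrays alone and with array weights. Other genes of the micropylar side had similar signals in peripheral endosperm: LCR69 had 51445 and 47642 in micropylar and 45049 and 47328 in peripheral endosperm (0.11), TOPII 8372 and 9113 in micropylar and 6104 and 6362 in peripheral endosperm (0.49), and DME 985 and 1615 in micropylar and 928 and 816 in peripheral endosperm (0.53). None of the 3 was called. On the chalazal side, TET4 (1449 and 595 in micropylar and 108 and 90.1 in peripheral endosperm, adjusted p = 0.0464) and AMY1 (1763 and 821 in micropylar and 53.3 and 39.9 in peripheral endosperm, adjusted p = 0.00745) were higher in micropylar than in peripheral endosperm, although chalazal endosperm was higher still.

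**Figure D5:**
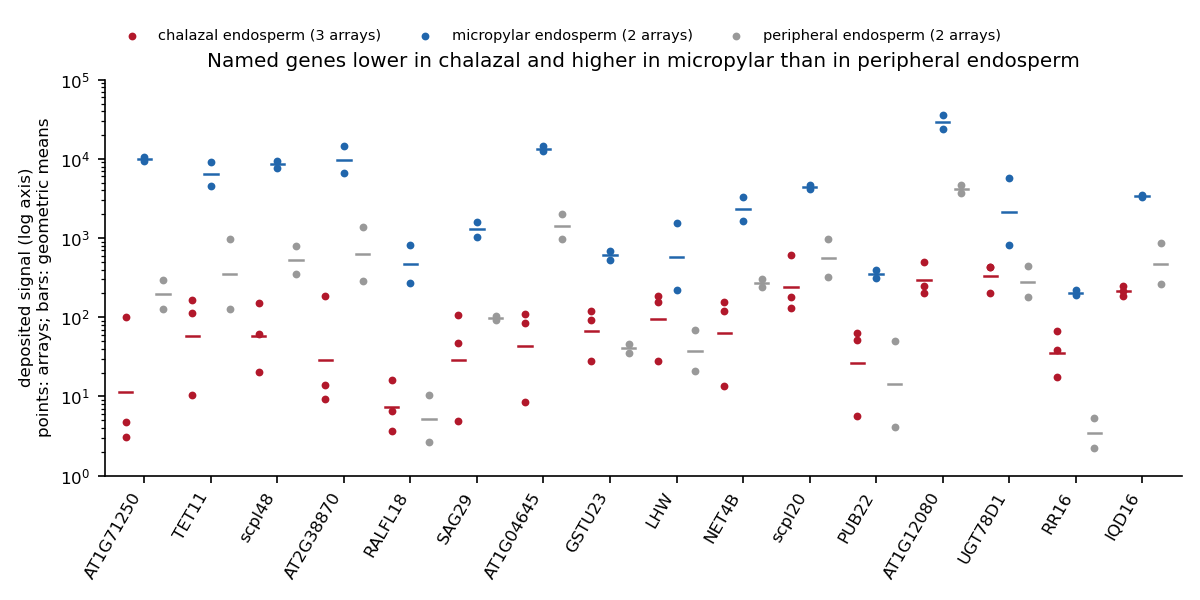
Deposited signal on each array (y axis, log scale) for the 16 named genes lower in chalazal and higher in micropylar than in peripheral endosperm (x axis), with chalazal arrays in red, micropylar in blue and peripheral in grey from left to right, 1 point per array and bars at geometric means. The micropylar points lie above those of both other regions for every gene shown, and those of LHW and UGT78D1 spread most. LHW is also among the embryo markers, and its call as lower in chalazal endosperm was not kept under every alternative.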

How the data were processed

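The deposited signal intensity is on a linear scale, 1 value per probe set and array, made by the authors with GCOS per the submitters' processing notes; its version and settings: not given in the sources used here. On every array the mean without the lowest and highest 2% of values was 500.04 to 500.08, a common scale set before deposit. Neither raw scans nor detection calls were used here. Of 22746 Arabidopsis probe sets, 13513 name 1 gene in the platform annotation, 503 several and 8730 none; unnamed ones stayed in every test. Names were updated through the TAIR10.1 gene table (13436 matched), which was used for names and gene order only.

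An offset of 30.2, the 25th percentile over the whole table, was added to each signal before taking log2. Each array was then centred on its median, and no filter on low values was set. A model of 7 group means over 16 arrays was fitted in R 4.3.3 using limma 3.58.1, and eBayes moderated the variances along a trend in intensity. It holds 1 spread per probe set for all groups, although the median standard deviation was 0.68 among chalazal and 0.42 among micropylar arrays. The p-values may thus be too small where chalazal arrays vary more than the rest. All tests were two-sided, and p-values were adjusted by Benjamini-Hochberg over all 22746 probe sets at 0.05. The test was tried on simulated data with known differences. The background bound was chosen after seeing the data. A gene is represented by its brightest probe set. The members and the gene lists, which were completed by symbol from the annotation, were chosen with earlier results of these data known. Named genes are, per direction, the 12 with a symbol and the 5 without one that had the largest called differences with no overlap of arrays, and per list up to 4 per direction with the smallest p and up to 2 with the largest p; not all are printed. A gene may stand in more than 1 list. Alternatives were other offsets, no centring, quantile normalisation, filters on low signal, the 5 arrays alone, no trend, array weights, a replicate block, leaving out each array and, added after seeing the data, a floor at the control background and counts without 4 list members that their symbols had misplaced. Coordinates and sequences are not used here.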

Additional observations from a re-analysis of the deposited data

How the results depend on the processing

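Of 214 named genes that were called, 126 kept their call under every alternative in which they were tested and 131 when any 1 of the 5 arrays was left out. No called difference of a named gene turned round. Micropylar array 1 mattered most: 59 of the 214 lost their call without it, against 43 without micropylar array 2 and 14 to 22 without a chalazal array. Where a micropylar array is left out, the other one is taken to vary as much as replicates of the remaining groups do. Leaving out 1 array at a time gave 1442 to 2360 probe sets higher and 1755 to 3411 lower in chalazal endosperm. It gave 6 to 10 autophagy, 7 to 13 vesicle traffic, 3 to 6 type I MADS-box and 3 to 7 wall polysaccharide genes called higher. It gave 2 to 7 mitosis, 6 to 11 actin, 2 to 7 nuclear photosynthesis, 3 to 6 receptor kinase, 4 to 9 secreted protease and 4 to 7 wall-loosening genes called lower. The 5 arrays alone, with 3 residual degrees of freedom against 9, gave 1455 probe sets higher and 2027 lower, and 5 autophagy, 7 vesicle traffic, 3 type I MADS-box and 4 wall polysaccharide genes higher, with 6 actin and 3 receptor kinase genes lower. An offset of 1 gave 3 type I MADS-box genes, and the filter at control background 4 wall polysaccharide genes. Array weights gave 1856 probe sets higher and 2743 lower, with 4 wall-loosening genes lower. The floor at control background, 164 after scaling, gave 3 type I MADS-box and 3 wall polysaccharide genes higher and 3 receptor kinase and 4 wall-loosening genes lower. Fewer arrays or a floor leave less to test; otherwise the cause was not tested. With a replicate block, 2532 probe sets were higher and 3490 lower, and 12 of the 214 named calls were lost. Several of the list counts given above moved by more than 1.5 times with the block. Called higher were 2 phragmoplast genes, against 4 without it, 0 mitosis genes, against 1, and 23 plastid-encoded photosynthesis genes, against 6. Also higher were 1 auxin and 1 pectin-modifying gene, against 0 of each. Called lower were 1 cytokinin gene, against 2, and 2 gibberellin genes, against 0. Lists without counts above moved too, among them mitochondria-encoded genes (5 higher, against 2) and amino acid transport genes (2 higher, against 0). Of sugar transport genes 3 were lower, against 1, and of plastid-encoded gene expression genes 0 were lower, against 2. The labels do not say whether the replicate numbers pair the arrays. Correlations of same-numbered deviations across the regions were -0.01 and -0.04. These cannot decide it, since the deviations of only 2 micropylar arrays mirror each other. Background bounds of 161 and 109 on chalazal arrays 1 and 2 limit what can be said of dim genes.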
